A study of Nicotiana tabacum with 6 samples.

Results

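E3 ubiquitin ligases were followed in tobacco seeds and seedlings that overexpress a sunflower heat shock transcription factor. The members were chosen by name: a gene was taken where the first protein description given to it in the deposited gene tables contains "E3 ubiquitin-protein ligase", "RING-H2 finger" or "U-box domain". This gave 283 of the 31766 gene identifiers in the tables, after 2 COP1-like identifiers had been left out by name. Expression values took no part in the choice by name, but only genes past a fold threshold were listed and could be chosen. As a check on the names, 263 members also carry an orthology annotation that the rule did not use, and it names a ubiquitin ligase for 184 of them (70.0%), against 0.953% of the other annotated genes. The set is not one of RING and U-box proteins alone, since 9 members are described as UPL proteins, whose catalytic domain is of the HECT type.

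Ubiquitin is passed from an activating enzyme (E1) to a conjugating enzyme (E2) and, by an E3 ligase, to the protein that is to be removed or altered. The E3 ligase recognizes the target, which is why plant genomes hold very many of them. RING and U-box ligases bring the E2 and the target together, whereas HECT ligases and RING-between-RING ligases carry the ubiquitin themselves for a moment. In seeds, E3 ligases are known from Arabidopsis for their part in abscisic acid responses, in light signalling and in the turnover of growth repressors during germination.

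The study compared transgenic (T) material with nontransgenic (NT) siblings of Nicotiana tabacum var. Xanthi, in 3 comparisons of 1 library against 1. DS10:A9 seeds carry HaHSFA9 (A9) behind the seed-specific DS10 promoter and were set against NT seeds. DS10:A4a seeds carry HaHSFA4a (A4a) behind the same promoter and were set against another library of NT seeds. 35S:A9 seedlings, where the 35S promoter gives A9 in vegetative organs, were set against NT seedlings. All seeds had been imbibed for 1 day in darkness and express their own A9, and all seedlings were 3 weeks old. The RNA of 4 samples was mixed for every library, prepared from T lines with a single, homozygous insertion or from their NT siblings (3 sibling pairs), so no comparison has a replicate and no test between conditions is given. The sources used here do not say which NT seed library in the sample list belongs to which seed comparison, and each NT column was kept with the T column beside it.

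Values are FPKM, fragment counts scaled to the length of the transcript and the depth of the library. The tables list a gene only where the log2 of T over NT passed 0.6 upwards or -0.5 downwards, so the genes that were measured and stayed between these values are not known here. For A9 there is 1 table, of genes higher in both A9 comparisons (A9up, 4755 genes), and for A4a there is a table of higher genes (A4a-up, 13618) and one of lower genes (A4a-down, 16011). The direction of an A9up member is thus fixed by the table. The steps between low FPKM values gave back the depth of each library, which was about 11660000 fragments in DS10:A9 and 11300000 in their NT seeds. It was 13380000 in 35S:A9, against 13240000 in NT seedlings, and 16360000 in DS10:A4a and 16240000 in their NT seeds. From the fragments behind each pair of values an interval for the log2 fold was computed (exact Clopper-Pearson, 95%). This counting interval covers counting error only and not the spread between plants, lines or pools. An FPKM of 0 means that no fragment was listed. As an allotetraploid, tobacco holds near-identical gene copies, whose reads the counting may have split. In whole seeds, fewer cells of a type and less RNA per cell cannot be told apart. Chlorophyll a/b-binding proteins, which mark green tissue, had a median FPKM of 242 in 35S:A9 and 117 in NT seedlings over the 11 such A9up genes, and of 0.11 in DS10:A9 and 0 in NT seeds. Of seed storage proteins, oleosins and late embryogenesis abundant proteins the tables list 6 genes, with at most 20.5 FPKM in DS10:A4a and 18.1 in NT seeds, so that the seed label could not be checked against its most abundant transcripts.

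With A4a, 251 of the 283 members were listed, as were 29629 of all 31766 identifiers. More of these members were higher than lower. In DS10:A4a seeds 143 members (57.0%) were higher and 108 (43.0%) lower, where the 29629 genes listed with A4a divided into 46.0% higher and 54.0% lower. The counting interval lay above 0 for 54 members (21.5%), against 8.93% of all genes, and below 0 for 23 members (9.16%), against 11.8%. For the other 174 members (69.3%), and for 79.3% of all genes, the interval included 0. The members stood on more fragments than the genes of the tables at large, with medians of 7 in DS10:A4a and 5 in NT seeds, against 4 in each over all genes, and their transcripts were longer, with a median of 1372 against 1082 bases. Where DS10:A4a or NT seeds reached 1 FPKM, 52 of 87 members (59.8%) were higher and 35 (40.2%) lower, against 40.4% and 59.6% of 8571 genes, and the interval lay above 0 for 40 (46.0%, against 23.3%) and below 0 for 22 (25.3%, against 32.1%). The median log2 fold was 0.68 over the 172 members above 0 in both libraries and -0.57 over all such genes. Because the tables leave out the middle of the distribution, these medians show only on which side most genes lay.

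**Figure D1:**
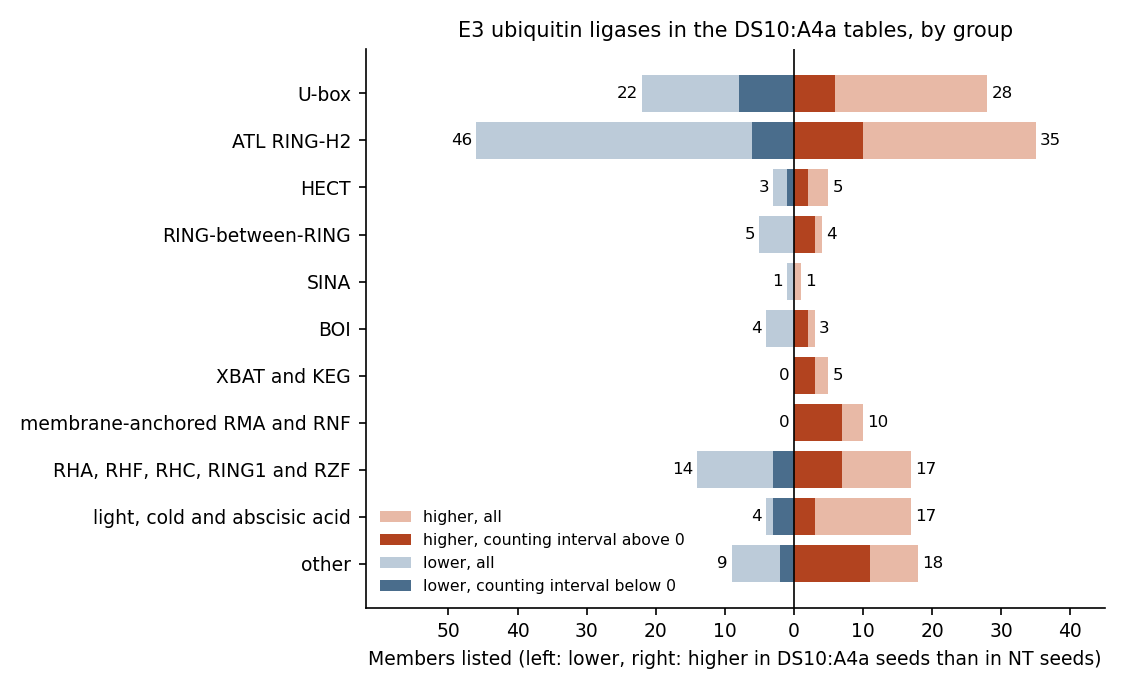
Number of E3 ligase genes in the DS10:A4a tables by group, higher than in NT seeds to the right and lower to the left, with the part whose counting interval does not include 0 in the dark colour. The 10 members labelled RMA and RNF, which hold only RMA, RNF170 and RNF185 names, and the 5 XBAT and KEG members were all higher. The ATL group had 35 higher and 46 lower.

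The surplus of higher members was seen at every level of expression and was widest at the top. Of the 12 members with a mean of at least 10 FPKM over the 2 libraries, 11 were higher in DS10:A4a seeds and 1 was lower (91.7% higher, against 50.9% of 791 genes at that level). The 11 are 5 RING1-like genes, 2 RMA1H1-like genes, 2 PUB23-like genes, an RNF181-like gene and LUL3, and the 1 is BRE1-like. At 1 to under 10 FPKM 37 of 64 members were higher (57.8%, against 37.9%), and under 1 FPKM 95 of 175 (54.3%, against 47.9%). Of the 79 members listed at 0 in a library (31.5%, against 30.5% of all genes), 37 were at 0 in DS10:A4a and 42 in NT seeds, and 67 had at most 3 fragments in the other library. The weak genes therefore give a direction that rests on very few fragments.

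**Figure D2:**
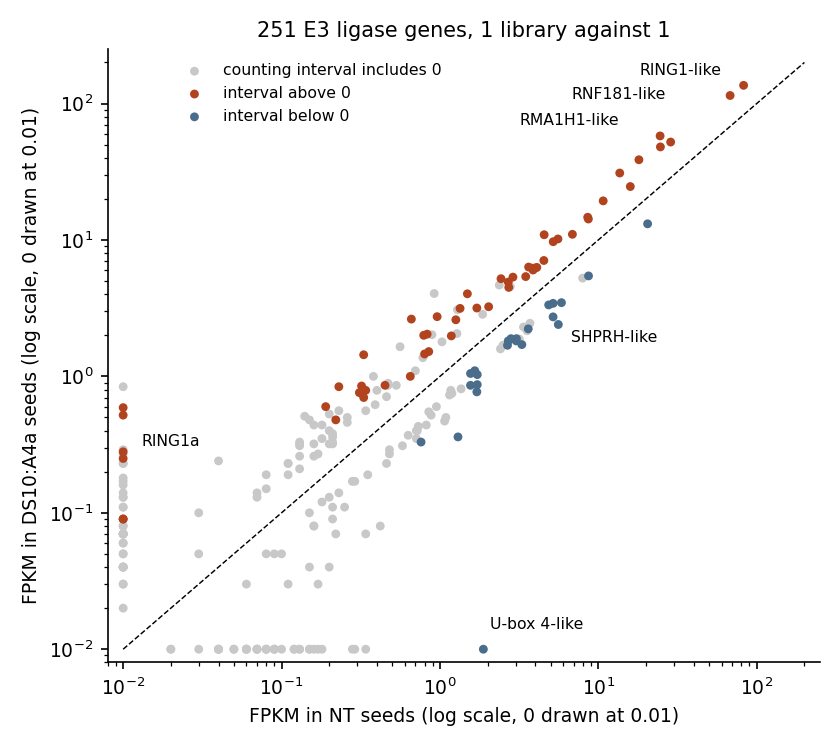
FPKM of the 251 listed E3 ligase genes in DS10:A4a seeds (vertical axis) and NT seeds (horizontal axis), both on log scales with 0 drawn at 0.01. Points above the dashed line of equality were higher in DS10:A4a seeds, and at the top right 11 of 12 members with a mean of 10 FPKM or more lie above it. The band free of points along the line is the range that the tables leave out.

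The membrane-anchored RMA, RNF170 and RNF185 ligases were uniform in direction. All 10 members of this group were higher in DS10:A4a seeds, 7 of them with a counting interval above 0, and their median log2 fold was 1.23. RNF names as a whole were not uniform, since 11 of the 16 listed with A4a were higher and 5 lower. RMA1H1 is known from pepper as a ligase of the endoplasmic reticulum membrane that removes a water channel under dehydration. Of the 5 RMA1H1-like genes, gene_74017 had 57.87 FPKM in DS10:A4a and 24.55 in NT seeds, which is a log2 fold of 1.24 with a counting interval from 1.08 to 1.40. The second, gene_74264, had 48.09 FPKM in DS10:A4a and 24.66 in NT seeds, a log2 fold of 0.96 (0.80 to 1.13). Both copies were at the same level in NT seeds, and the intervals of their folds overlapped. The next pair was far weaker at a like fold, with gene_50638 at 2.74 FPKM in DS10:A4a and 0.96 in NT seeds (log2 fold 1.51, 0.60 to 2.50) and gene_517 at 2.0 and 0.79 (1.34, 0.37 to 2.38). The fifth, gene_23641, with 0.31 FPKM in DS10:A4a and 0.13 in NT seeds, rests on 7 and 3 fragments. The other 5 members of the group are 3 RNF185-like genes, an RNF170-like gene and RMA3-like. RNF185 in humans is a ligase of the endoplasmic reticulum that takes part in the removal of misfolded proteins. The RNF185-like gene_18248 had 6.21 FPKM in DS10:A4a and 3.84 in NT seeds, a log2 fold of 0.69 (0.26 to 1.14), and gene_58880 had 4.49 and 2.72, a log2 fold of 0.72 (0.17 to 1.29). RNF170-like gene_18198 had 2.60 FPKM in DS10:A4a and 1.26 in NT seeds, a log2 fold of 1.05 (0.28 to 1.88).

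The RING1-like ligases, RING-finger proteins so named by similarity, divided by level. Of the 14 listed with A4a, 6 were higher and 8 were lower. The 5 genes above 10 FPKM were all higher in DS10:A4a seeds with intervals above 0. Among them was gene_17436, the most abundant member of the whole set, with 135.97 FPKM in DS10:A4a and 82.64 in NT seeds, a log2 fold of 0.72 (0.62 to 0.81). The others were gene_56609 with 52.21 FPKM in DS10:A4a and 28.62 in NT seeds (log2 fold 0.87), gene_18825 with 38.71 and 18.04 (1.10), gene_64333 with 30.95 and 13.65 (1.18, 0.95 to 1.41) and gene_7372 with 24.64 and 15.92 (0.63, 0.44 to 0.82). The counting intervals of gene_17436 and gene_64333 did not overlap, so these folds differed within the family beyond counting error. Of the 9 genes under 4 FPKM, 8 were lower. These included gene_3232 with 2.23 FPKM in DS10:A4a and 3.61 in NT seeds, a log2 fold of -0.70 (-1.01 to -0.38), and gene_29776 with 1.82 and 2.70, a log2 fold of -0.57 (-1.10 to -0.05). For the other 7 of these 9 the interval included 0.

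**Figure D3:**
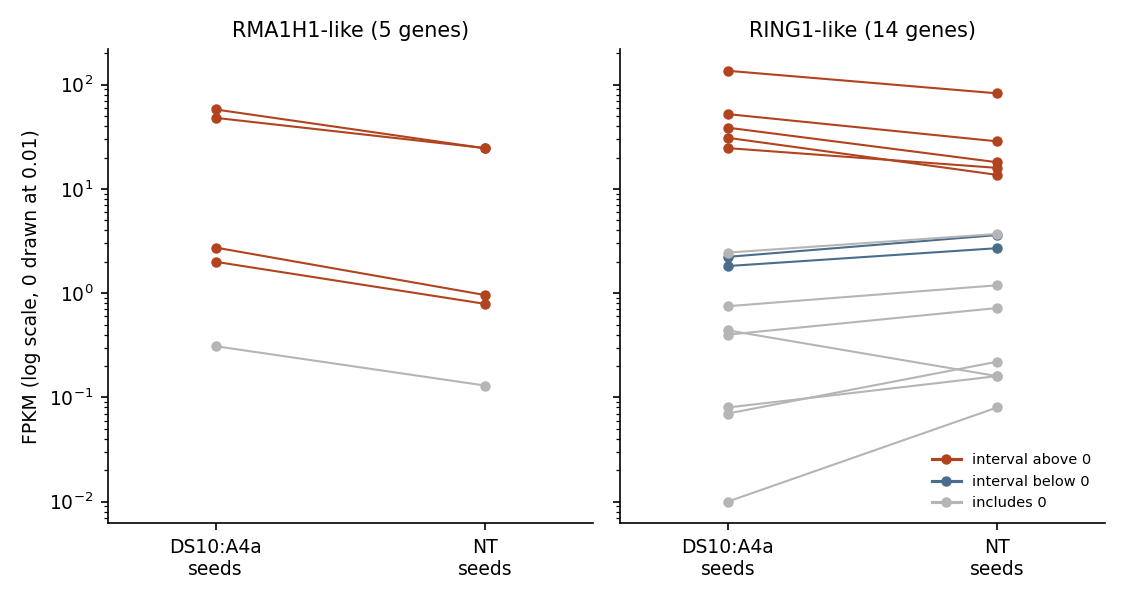
FPKM on a log scale, with 0 drawn at 0.01, of the 5 RMA1H1-like and the 14 listed RING1-like genes in DS10:A4a seeds (left points) and NT seeds (right points), 1 line per gene. Every RMA1H1-like line is higher at the DS10:A4a end, whereas the RING1-like lines are higher there for the 5 genes above 10 FPKM and mostly lower for the weaker ones.

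Other abundant ligases were also higher with A4a. The RNF181-like gene_54181, named after a human RING ligase, had 114.55 FPKM in DS10:A4a and 67.93 in NT seeds, a log2 fold of 0.75 (0.64 to 0.87). PUB23, known from Arabidopsis as a U-box ligase that dampens immune and drought responses, had 5 gene models here, of which 2 were expressed above 0.1 FPKM. These were gene_55138 with 19.34 FPKM in DS10:A4a and 10.73 in NT seeds, a log2 fold of 0.85 (0.63 to 1.08), and gene_68290 with 14.24 and 8.65, a log2 fold of 0.72 (0.44 to 0.99). The LUL ligases, relatives of the Arabidopsis LOG2 ligase of amino acid export, had 3 gene models, all higher with intervals above 0. LUL3 (gene_60712) had 14.67 FPKM in DS10:A4a and 8.57 in NT seeds, and the LUL4 models had 5.34 and 2.89 (gene_60710) and 4.03 and 1.49 (gene_60717). Whether these 3 models are separate genes or pieces of fewer was not tested.

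The XBAT and KEG ligases, which combine a RING finger with ankyrin repeats, were all higher with A4a (5 of 5, 3 with an interval above 0). KEEP ON GOING (KEG) is known in Arabidopsis for holding the abscisic acid transcription factor ABI5 at a low level. KEG gene_58344 had 10.17 FPKM in DS10:A4a and 5.56 in NT seeds, a log2 fold of 0.87 (0.13 to 1.69), and KEG gene_44513 had 2.02 and 0.89, a log2 fold of 1.18 (-0.18 to 2.71). Both are short models of 325 and 549 bases for a protein known to be long, and rest on 43 and 16 fragments in DS10:A4a and 23 and 7 in NT seeds. XBAT31 (gene_81003) had 7.07 FPKM in DS10:A4a and 4.53 in NT seeds, a log2 fold of 0.64 (0.33 to 0.95). The BOI ligases, known in Arabidopsis for curbing cell death and for binding DELLA growth repressors, were 3 higher and 4 lower. Their strongest member, BOI-related 3 (gene_55094), had 11 FPKM in DS10:A4a and 6.86 in NT seeds, a log2 fold of 0.68 (0.39 to 0.98), and BOI-related 1-like (gene_17874) had 4.91 and 2.70, a log2 fold of 0.86 (0.49 to 1.24). None of the 4 lower BOI members had an interval below 0.

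The U-box ligases were divided in direction. Of 50 listed with A4a, 28 were higher and 22 lower, but only 6 of the higher ones had an interval above 0, against 8 of the lower ones with an interval below 0. With the 5 PUB23-like genes, which the grouping by name had put elsewhere, these counts became 31, 24, 8 and 8. The 6 LIN genes, U-box ligases that the names had also placed elsewhere, were 5 higher and 1 lower and are in neither count. The strongest U-box gene was the U-box 4-like gene_32168, with 9.71 FPKM in DS10:A4a and 5.19 in NT seeds, a log2 fold of 0.90 (0.64 to 1.18). Another gene with the same description, gene_13069, was listed at 0 in DS10:A4a seeds and at 1.88 FPKM, from 53 fragments, in NT seeds. Set against a floor of 3 fragments in the DS10:A4a library it was 17.8-fold lower, the widest gap of any member listed at 0. Its counting interval reached up to a log2 fold of -3.80, a smaller gap than this floor gives. The 10 U-box 4 models were 6 higher and 4 lower, and among the higher ones gene_13055 had 3.17 FPKM in DS10:A4a and 1.71 in NT seeds. U-box 7 (gene_35019) had 1.71 FPKM in DS10:A4a and 3.29 in NT seeds, a log2 fold of -0.94 (-1.61 to -0.30). U-box 34-like (gene_80345) had 1.82 FPKM in DS10:A4a and 3.03 in NT seeds, a log2 fold of -0.74 (-1.13 to -0.36). CHIP, the U-box ligase that works with heat shock chaperones, had a single gene model (gene_15021) with 4.56 FPKM in DS10:A4a and 2.78 in NT seeds, a log2 fold of 0.71 whose interval reached to 0 (-0.02 to 1.48).

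The ATL ligases, membrane-bound RING-H2 proteins of which several respond to elicitors in Arabidopsis, were the largest group. Of 81 listed, 35 were higher and 46 lower, a split close to that of all listed genes (46.0% higher and 54.0% lower), and 10 had an interval above 0 and 6 below. Their levels were low, with at most 10.92 FPKM in DS10:A4a and 7.96 in NT seeds, and 38 of them were listed at 0 in a library. ATL3-like gene_59838 had 10.92 FPKM in DS10:A4a and 4.55 in NT seeds, a log2 fold of 1.26 (0.80 to 1.74). All 5 ATL60 genes were higher, but only 2 had an interval above 0. These were gene_38491 with 3.15 FPKM in DS10:A4a and 1.34 in NT seeds (log2 fold 1.23, 0.60 to 1.90) and gene_80248 with 1.44 and 0.33 (2.13, 1.08 to 3.37). All 3 ATL80 genes were lower. Of these, gene_60622 had 2.73 FPKM in DS10:A4a and 5.18 in NT seeds (log2 fold -0.92, -1.57 to -0.30), gene_53918 had 5.25 and 7.96 (-0.60, -1.31 to 0.10) and gene_81272 had 2.16 and 3.55 (-0.72, -1.46 to 0.01). The 3 ATL42 models were lower as well, with intervals below 0 for gene_70899 with 0.36 FPKM in DS10:A4a and 1.30 in NT seeds (-1.85, -3.03 to -0.82) and gene_70304 with 3.34 and 4.86 (-0.54, -0.90 to -0.17), but not for gene_64072 with 0.55 and 0.85 (-0.63, -1.76 to 0.45). The 6 ATL78-like genes listed with A4a were each at 0 in one of the libraries and at most 0.59 FPKM in the other.

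The group labelled light, cold and abscisic acid was mixed. Listed with A4a were XERICO, COP1, RKP, LIN, BRE1 and RF298 names, none of them that of a cold ligase. The group had 17 higher and 4 lower members with A4a, with 3 intervals above and 3 below 0. XERICO, a small RING-H2 protein that raises abscisic acid in Arabidopsis, had 5 listed genes, all higher. The better expressed ones were gene_13469 with 2.85 FPKM in DS10:A4a and 1.86 in NT seeds, a log2 fold of 0.62 (-0.08 to 1.35), and gene_64446 with 1.52 and 0.85, a log2 fold of 0.84 (0.25 to 1.47). The other 3 rest on at most 5 fragments in a library. RKP, which in Arabidopsis removes an inhibitor of the cell cycle, had 5 models of 301 to 903 bases, all higher, with gene_20191 the strongest at 5.20 FPKM in DS10:A4a and 2.43 in NT seeds (1.10, 0.07 to 2.23). For the other 4 RKP models, with 7 to 18 fragments in DS10:A4a and 4 to 10 in NT seeds, the interval included 0. COP1, the ligase that removes light-signalling transcription factors in darkness, was represented by 1 model of 174 bases (gene_12809), with 3 fragments in DS10:A4a and 1 in NT seeds, which gives no direction. On the lower side stood BRE1-like (gene_78931), whose relatives put ubiquitin on histone H2B, with 13.13 FPKM in DS10:A4a and 20.47 in NT seeds, a log2 fold of -0.64 (-0.92 to -0.36). Both RF298 models were lower as well, gene_61834 with 3.43 FPKM in DS10:A4a and 5.18 in NT seeds (-0.59) and gene_12053 with 1.05 and 1.56 (-0.57). No member was described as AIP2, SDIR1, RGLG, HOS1 or PRT6.

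Among the remaining groups, RING-between-RING ligases were 4 higher and 5 lower, and the 3 with an interval off 0 were all higher. The strongest, ARI2 (gene_41114), an Arabidopsis ariadne name, had 6.22 FPKM in DS10:A4a and 3.99 in NT seeds, a log2 fold of 0.64 (0.34 to 0.94), and RNF217 gene_27920 had 2.04 and 0.83, a log2 fold of 1.30 (0.32 to 2.34). HECT ligases were 5 higher and 3 lower on short gene models, with a median length of 377 bases for proteins known to be very large. UPL3, which restrains trichome growth in Arabidopsis, had a model that was lower (gene_1061, 0.87 FPKM in DS10:A4a and 1.72 in NT seeds, -0.98, -2.01 to -0.07) and one that was listed at 0 in NT seeds (gene_1063, 0.25 FPKM from 6 fragments in DS10:A4a seeds). The 2 SINA members listed with A4a had at most 0.07 FPKM in either library. Of the ungrouped ligases 18 were higher and 9 lower, and the 2 lower ones with an interval below 0 were SHPRH-like and TRAF7. SHPRH-like gene_55073, named after a human DNA repair ligase, had 2.40 FPKM in DS10:A4a and 5.59 in NT seeds, a log2 fold of -1.22 (-1.73 to -0.72). TRAF7 (gene_43902) had 5.45 FPKM in DS10:A4a and 8.67 in NT seeds, a log2 fold of -0.67 (-0.99 to -0.36). On the higher side, Praja-2 gene_54625 had 0.84 FPKM in DS10:A4a and 0.23 in NT seeds, a log2 fold of 1.87 (0.72 to 3.07), and listerin (gene_9608), which marks incomplete proteins on stalled ribosomes, had 6.02 and 3.87.

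Tobacco arose from N. sylvestris and N. tomentosiformis, and the descriptions name the species of the best match. With A4a, 75 of 135 members matched to N. sylvestris were higher (55.6%, against 46.8% of all genes so matched), and 57 of 99 matched to N. tomentosiformis (57.6%, against 47.1%). The share of higher members was thus alike in both matches. Of 9 names with exactly 1 listed member of each match, 4 pairs had the same direction and 5 did not. The SINAT2, ATL51 and U-box 35 pairs, among those that did not, give no direction beyond counting error. Each of their genes was at 0 in a library and at most 0.28 FPKM in the other, with an interval that included 0. In no pair with the same direction did both intervals lie off 0. In the U-box 13 pair gene_754 (N. tomentosiformis) had 2.63 FPKM in DS10:A4a and 0.66 in NT seeds, a log2 fold of 1.99 (0.53 to 3.76). Its partner gene_16329 (N. sylvestris) had 1.69 FPKM in DS10:A4a and 2.67 in NT seeds, a log2 fold of -0.66 (-1.08 to -0.24). The 2 models differ in length (531 and 2941 bases), and their counting intervals lay on opposite sides of 0, and so did those of the U-box 52 pair, gene_27138 at 1.13 (0.32 to 2.0) and gene_2703 at -0.74 (-1.25 to -0.22). That the paired names are copies of one ancestral gene was not tested.

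With A9, 50 members were listed as higher in both seeds and seedlings, 17.7% of the 283 members, where 15.0% of all identifiers were in that table. Of these 50, 14 were ATL proteins, 14 belonged to the group of RHA, RHF, RING1, MBR and locus-named RING ligases, and 3 were BOI proteins. The second of these groups includes gene_43008, described only as a transmembrane E3 ligase, which the name pattern caught by the letters MBR. A mixed group of XERICO, RKP, LIN-1 and UBR7 genes gave 6. Of the 52 members in the U-box group, 2 were listed. The pair of LIN-1 genes in the table, which are U-box ligases too, was counted in the mixed group. The interval lay above 0 for 15 members in DS10:A9 seeds (30.0%, against 20.8% of A9up genes), for 29 in 35S:A9 seedlings (58.0%, against 42.8%) and for 13 in both (26.0%, against 14.5%). These members were also better expressed than A9up genes at large, and 20 (40.0%, against 30.3%) reached 1 FPKM in a seed library, 30 (60.0%, against 46.3%) in a seedling library and 16 (32.0%, against 21.6%) in both. A further 16 stayed under 1 FPKM in all 4 libraries. The median log2 fold was 1.06 in seeds (1.09 over all A9up genes) and 1.18 in seedlings (1.24 over all). Of 36 members with a fold in both, 14 had the larger one in seedlings and 22 in seeds.

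**Figure D4:**
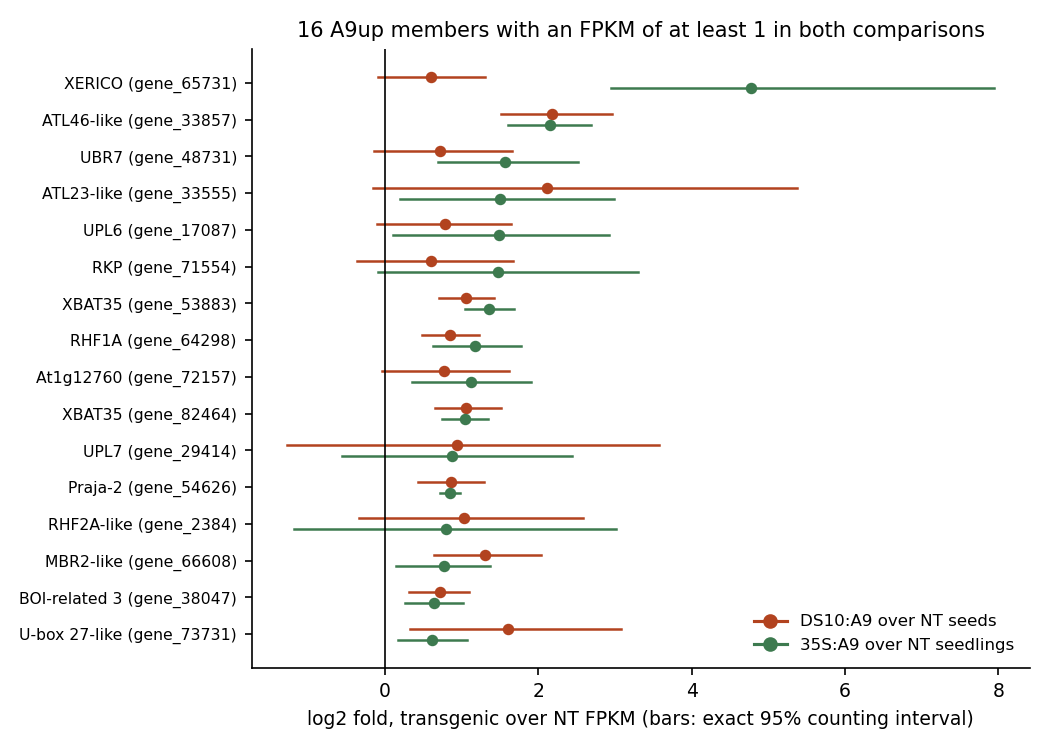
Log2 folds of the 16 A9up members that reached 1 FPKM in both comparisons, for DS10:A9 over NT seeds (upper point of each pair) and 35S:A9 over NT seedlings (lower point), with exact 95% counting intervals as bars. The seed and seedling intervals overlap for every gene but XERICO, with folds of 0.60 in seeds and 4.77 in seedlings.

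XERICO gene_65731 showed the widest contrast between seeds and seedlings. It had 2.19 FPKM in 35S:A9 and 0.08 in NT seedlings, a log2 fold of 4.77 (2.95 to 7.95) from 59 and 2 fragments, and 2.02 FPKM in DS10:A9 and 1.33 in NT seeds, a log2 fold of 0.60 (-0.09 to 1.31). The NT seedlings alone stood apart, since the other 3 libraries lay between 1.33 and 2.19 FPKM. It was the only one of the 50 members whose seed and seedling intervals did not overlap. The same count was not made over all A9up genes. Of the 50, 16 stayed under 1 FPKM in all 4 libraries, and intervals on so few fragments are wide, so their overlap says little.

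One ATL46-like gene and both XBAT35 genes in the A9up table had intervals above 0 in both tissues. For the other 2 ATL46-like genes of that table the seed interval included 0. ATL46-like gene_33857 had 3.04 FPKM in DS10:A9 and 0.67 in NT seeds, a log2 fold of 2.18 (1.52 to 2.96), and 3.77 FPKM in 35S:A9 and 0.85 in NT seedlings, a log2 fold of 2.15 (1.61 to 2.69). XBAT35, an ankyrin-repeat RING ligase known from Arabidopsis for its part in ethylene-dependent bending of the apical hook, was represented by 2 genes. Of these, gene_53883 had 9.51 FPKM in DS10:A9 and 4.56 in NT seeds (1.06, 0.71 to 1.42) and 11.75 FPKM in 35S:A9 and 4.58 in NT seedlings (1.36, 1.04 to 1.68). The other, gene_82464, had 5.95 and 2.84 FPKM in DS10:A9 and NT seeds (1.07, 0.65 to 1.51) and 9.74 and 4.73 in 35S:A9 and NT seedlings (1.04, 0.74 to 1.35). For each of the 2 genes the seed and seedling intervals overlapped.

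Praja-2 (gene_54626), named after a mammalian RING ligase, was the most abundant A9up member, with 23.32 FPKM in 35S:A9 and 12.94 in NT seedlings (0.85, 0.72 to 0.98) and 2.91 in DS10:A9 and 1.60 in NT seeds (0.86, 0.43 to 1.30). RHF1A, which takes part in the formation of gametes in Arabidopsis, had 10.34 FPKM in DS10:A9 and 5.71 in NT seeds (gene_64298, 0.86, 0.49 to 1.23) and 4.33 in 35S:A9 and 1.92 in NT seedlings (1.17, 0.63 to 1.77). The RHF family, 3 genes in all, was listed only in the A9up table. MBR2-like (gene_66608), whose Arabidopsis relatives act on a Mediator subunit in flowering, had 4.70 FPKM in DS10:A9 and 1.90 in NT seeds (1.31, 0.65 to 2.03) and 3.46 in 35S:A9 and 2.03 in NT seedlings (0.77, 0.14 to 1.38). BOI-related 3 gene_38047 had 9.86 and 6.0 FPKM in DS10:A9 and NT seeds (0.72) and 8.74 and 5.57 in 35S:A9 and NT seedlings (0.65), and in all of these pairs the interval stayed above 0.

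Several A9up members were mainly seedling transcripts. ATL74-like gene_21993 had 3.18 FPKM in 35S:A9 and 0.53 in NT seedlings, a log2 fold of 2.58 (1.89 to 3.38), and 0.22 FPKM in DS10:A9 and 0.10 in NT seeds from 7 and 3 fragments. Another, gene_21869 (Os04g0590900-like), had 1.54 FPKM in 35S:A9, against 0.39 in NT seedlings, and a single fragment in the DS10:A9 and NT seed libraries combined. Over the 50 members, NT seedlings were above NT seeds for 27 and below for 19, and 14 members reached 1 FPKM in seedlings only, against 4 in seeds only. A9up genes at large leaned the same way, with 46.3% at 1 FPKM in a seedling library, 30.3% in a seed library and 21.6% in both. The lean is thus not particular to the members. A pair of LIN-1 genes, U-box and WD-repeat ligases known from legumes for their part in nodule infection, had intervals above 0 in both tissues. LIN-1 gene_74690 had 0.44 FPKM in DS10:A9 and 0.04 in NT seeds, a log2 fold of 3.46 (1.53 to 6.67), and 1.74 in 35S:A9 and 0.31 in NT seedlings (2.49, 1.81 to 3.30). LIN-1 gene_6563 had 0.41 and 0.02 FPKM in DS10:A9 and NT seeds (4.36, 1.86 to 9.84) and 1.39 and 0.43 in 35S:A9 and NT seedlings (1.69, 1.07 to 2.38).

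Of the 50 A9up members, 18 were also in an A4a table (36.0%, against 55.1% of A9up genes), 10 of them higher and 8 lower in DS10:A4a seeds. The share of higher ones among the 18 was 55.6%, against 50.4% of all A9up genes in an A4a table. The A9up members were selected for a low NT value in their own comparison, and the tables were normalized separately, so their 2 NT seed values are given only side by side. Over the 18 members the NT seeds of the A9 comparison were below those of the A4a comparison for 12, above for 5 and equal for 1. No interval of their ratio was off 0, against 11.3% of the 2618 such genes. Most of the 18 rest on few fragments, so their intervals are wide and including 0 says little about agreement. Of the 13 members above 0 in both NT seed libraries, 4 had a log2 ratio past 0.6 either way. The same held for 795 of the 1437 A9up genes above 0 in both. All these genes had passed a fold threshold against the same NT values. How far the NT seed libraries differ over genes at large was therefore not tested.

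XBAT35 gene_53883 was higher in all 3 comparisons with every interval above 0, with 5.39 FPKM in DS10:A4a and 3.48 in NT seeds (0.63, 0.28 to 0.99) beside the A9 values above. Its 2 NT seed libraries, at 4.56 and 3.48 FPKM, differed by less than either fold. UPL6 (gene_17087) went the other way with A4a. It had 1.88 FPKM in DS10:A4a and 3.17 in NT seeds (-0.75, -1.58 to 0.01), but 3.17 in DS10:A9 and 1.84 in NT seeds (0.78, -0.11 to 1.65) and 1.66 in 35S:A9 and 0.59 in NT seedlings (1.49, 0.11 to 2.92). Its 2 NT seed libraries lay about as far apart (3.17 and 1.84 FPKM) as T and NT did in either seed comparison. RMA1H1-like gene_23641 was higher in all 3 comparisons, with 0.67 FPKM in DS10:A9 and 0.13 in NT seeds, 2.95 in 35S:A9 against 1.68 in NT seedlings, and 0.31 in DS10:A4a and 0.13 in NT seeds, the last of which rests on 7 and 3 fragments. RING1a gene_86791 was likewise weak, with 0.82 FPKM in DS10:A9 and 0.24 in NT seeds, 1.21 in 35S:A9 against 0.36 in NT seedlings, but 0.17 in DS10:A4a and 0.29 in NT seeds, from 4 and 7 fragments. The LIN-1 genes, both higher with A9, were at 0.05 FPKM in DS10:A4a seeds and at 0.08 (gene_74690) and 0.03 (gene_6563) in their NT seeds. Of the 10 shared members that were higher with A4a, 3 had an A4a interval above 0, and of the 8 that were lower none had one below 0.

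**Figure D5:**
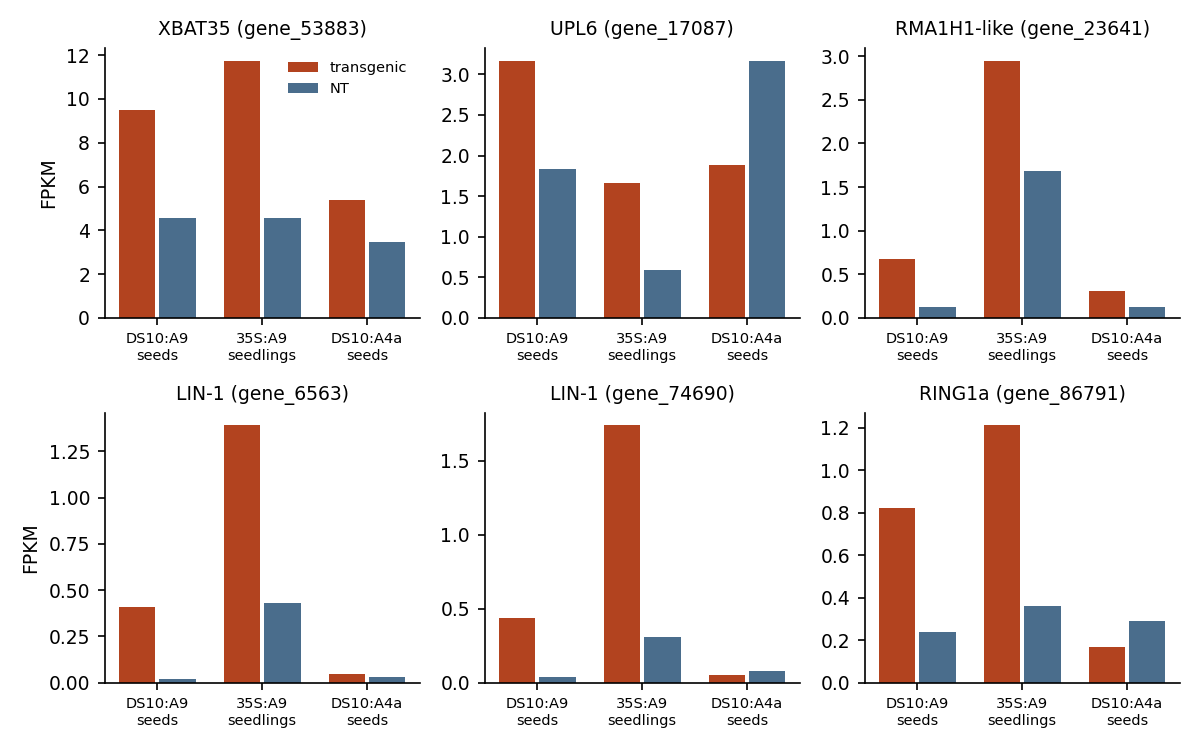
FPKM of 6 A9up members that are also in an A4a table, in the transgenic (left bar of each pair) and NT (right bar) libraries of the 3 comparisons, 1 library per bar and each panel on its own axis from 0. XBAT35 and RMA1H1-like are higher in the transgenic library of every pair, whereas UPL6, a LIN-1 gene and RING1a are lower in the transgenic library of the DS10:A4a pair.

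The rest of the ubiquitin pathway, taken by product name, was divided in direction with A4a. E2 enzymes were 7 higher and 9 lower, cullins, the scaffolds of larger E3 complexes, 3 higher and 8 lower, BTB/POZ proteins, many of which are their adaptors, 26 higher and 25 lower, and proteins that remove ubiquitin 11 higher and 8 lower, where 46.0% of all genes were higher. All 4 cullin-3A genes, which form the scaffold that BTB/POZ proteins bind, were lower. The interval was below 0 for 2 of them, gene_61259 with 9.68 FPKM in DS10:A4a and 14.82 in NT seeds (-0.61) and gene_39147 with 3.14 and 5.10 (-0.70). The 4 listed SKP1 genes were all higher, but each was at 0 in NT seeds, and no E1 enzyme was found by name. Of 5 polyubiquitin genes 2 were higher and 3 lower. The one with a counting interval off 0 was gene_47537, the precursor that supplies ubiquitin itself, with 375 FPKM in DS10:A4a and 121 in NT seeds, a log2 fold of 1.64 (1.58 to 1.69), wider than that of any E3 ligase with a mean of at least 10 FPKM in these 2 libraries. In the A9up table stood 5 BTB/POZ genes, 2 E2 genes, 2 SKP1 genes and 2 genes that remove ubiquitin, and no cullin or polyubiquitin gene.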

How the data were processed

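RNA from DS10:A9, DS10:A4a and 35S:A9 material and its NT siblings was sequenced as 1 library per condition and comparison, 6 in all. The deposited values are FPKM, which per the labels and methods come from RSEM 1.2.12 on Bowtie2 2.2.5 alignments to gene models built with HISAT 0.1.6 and StringTie 1.04 (the submitters' processing notes). The authors wrote 0.01 in place of 0. It was read as 0. Their log2 fold and p-value columns hold their own comparisons and were not used, and 2 further files repeat genes of the 3 used. Of the A9up identifiers, 2 lack a row for one comparison and enter no count that needs both.

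Log2 folds of T over NT were recomputed from FPKM. Depth and a length correction were fitted so that low FPKM values became whole fragments (within 0.2 fragment for 89.1 to 96.5% of values with at most 6.5 fragments). This step was tested on simulated data of whole fragments. The simulation held no reads split between gene copies, so it does not cover genes where the counting split them. The intervals are exact Clopper-Pearson at 95% for the share of fragments in T, for counting error only. No test between conditions was run, since each has 1 library. A fold against a library at 0 uses a floor of 3 fragments in that library. The transgenes themselves were not analysed here.

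The members, groups and lists were chosen with earlier results of these data known. Genes named by rule, 73 in all, were the 6 largest rises and falls on log2(FPKM + 1) with A4a, the 6 A9up members with the largest smaller change, the 3 most abundant of each group and table, shared members of at least 1 FPKM in all 3 pairs, and those described as COP1, XERICO, KEG, AIP2, SDIR1, RGLG, CHIP, HOS1, PRT6 or RMA. The rule also took the 9 pairs of 1 name matched to both parent species, whose genes are among the 73 only where another part of the rule names them. Other members named in the text, among them the remaining RING1-like, LUL, PUB23, ATL60, ATL80, ATL42, RNF185-like, LIN-1 and RF298 genes, were picked after their values had been seen. Alternatives were other thresholds, pseudocounts of 0.1 and 1, a minimum of 1 FPKM, any description in place of the first, the counting interval and no length correction. Analyses used Python 3.11.15, NumPy 2.4.6, SciPy 1.17.1, pandas 2.3.3 and matplotlib 3.10.9.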

Additional observations from a re-analysis of the deposited data

How the results depend on the processing

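No paired analysis was possible because each comparison holds 1 library of each kind, and no library could be left out. The 143 higher and 108 lower members with A4a became 86 and 58 at a log2 fold of 1 and -1, 52 and 35 with a minimum of 1 FPKM, 36 and 15 with a pseudocount of 1, and 54 and 23 where the counting interval had to lie off 0, so that the higher ones stayed the more numerous. The 50 A9up members became 24, 16, 6 and 13 under these 4 settings in turn. For the minimum of 1 FPKM and the counting interval, the shares of all genes are given above. No such share was taken for a log2 fold of 1 and -1, for the pseudocounts or for the shared members under these settings. Those counts are therefore no result particular to the members. The shared members had to pass in all 3 comparisons, and the 10 that were higher with A4a became 0, 1, 0 and 1, and 6 with a pseudocount of 0.1, and the 8 lower ones became 3, 1, 0 and 0, and 5 with a pseudocount of 0.1. The median log2 fold with A4a was 0.58 with a pseudocount of 0.1 and 0.15 with 1, that of A9up members in seeds 0.89 and 0.47, and 0.86 with a minimum of 1 FPKM, and that in seedlings 0.62 with a pseudocount of 1. Of the 104 values of genes named by rule, 57 still passed the threshold with a pseudocount of 1, and 62 had an interval off 0 with and without the length correction, though the call differed for 2 values. Equal thresholds of 0.6 and -0.6 and the use of any description changed no count by over 1.5 times. Depth limits the genes under 1 FPKM most, and the tables' thresholds hide every gene with a smaller fold.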
